A study of Bos taurus with 8 samples.

Results

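The bovine major histocompatibility region of chromosome 23, known in cattle as BoLA, was examined by MIRA-Seq in fibroblasts grown from the skin of Holstein and Angus heifers. Its members were all 3Kb windows of chromosome 23 with a start between 25000000 and 29500000 on UMD v3.1, which gave 1499 of the 902984 windows of the genome, or 8.56% of the windows of chromosome 23. The other 16009 windows of the chromosome served as background. The 1499 windows carried 202 gene symbols. Of these symbols, 83 began with LOC, 131 were found in a RefSeq gene table of a later cattle assembly that was used for names alone, and ICK alone ran past the edge of the region. A gene name stood on 832 windows, and a coding exon on 454 (30.3%, against 14.6% in the rest of the chromosome).

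The region holds genes that let the immune system see what a cell contains. Class I genes such as BOLA-A encode molecules that present peptides from inside nearly every cell, class II genes such as BOLA-DRA and BoLA-DRB3 encode molecules that present captured material on specialised immune cells, and the class III genes between them encode complement factors, TNF and many proteins with no role in presentation. In cattle the class II genes are split, and the class IIb group, with the peptide transporters TAP1 and TAP2, lies far from the rest on the same chromosome. Class I and class II genes vary in sequence and in copy number between animals, and methylated CpG at gene starts goes with silence in many genes.

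MIRA-Seq enriches sonicated genomic DNA for fragments with methylated CpG, using a pair of methyl-binding proteins, and the bound fragments are sequenced. The cultures were not treated, came from skin biopsies of 4 Holstein (a dairy breed) and 4 Angus (a beef breed) heifers, and were harvested at passage 5. Each animal gave 1 culture and 1 library, named here by breed and animal number. By the methods of the study the heifers were of like age when sampled. Calves of these breeds are commonly reared in different ways, with or without the dam, and breed and rearing cannot be told apart here. A read count in this assay rises with methylation, with the number of CpG sites and with the number of DNA copies, and without an input library these cannot be told apart; nor can fewer methylated cells be told apart from less methylation in each cell. The assay does not read expression, so the fibroblast label was not checked by marker genes.

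Each library put between 11837 and 33956 reads into the region, which was 0.0532 to 0.0956% of its reads over all windows and 5.62 to 6.17% of its reads on chromosome 23. The median window of the region held 3 to 11 reads per library, and 10 of the 1499 windows held no read in any library. Values are given as CPM, the reads of a window divided by all window reads of its library and scaled to a common total. A count of 3 reads, the upper limit that a count of 0 allows, corresponded to 0.0844 to 0.161 CPM in a window. Such limits cover counting error only. Angus 3 and Holstein 1 stood apart, with 26.1% and 20.0% of their reads on unplaced scaffolds against 10.6 to 16.1% in the other libraries, and with the lowest TMM factors (0.677 and 0.817). CPM in the region was also low in both, for a reason that was not tested. Levels were therefore compared as ratios within a library.

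The region as a whole yielded fewer reads than its chromosome. The mean was 0.525 ± 0.0995 CPM per window (SD, n = 8) in the region and 0.766 ± 0.141 in the rest of chromosome 23. Values by culture are listed in the order of the animal numbers. Within libraries, the ratio of the region to the rest of the chromosome was 0.672, 0.699, 0.696 and 0.702 in Holstein 1 to 4, and 0.684, 0.695, 0.699 and 0.636 in the 4 Angus cultures. The mean log2 ratio was -0.55 ± 0.05 (SD, n = 8), below 0 in 8 of 8 libraries (two-sided exact sign-flip test, p = 0.00781, the smallest value that 8 libraries allow). The libraries lay close together, with Angus 4 as the lowest.

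This low mean joined a class III segment with many reads to class II windows with few. The class IIa segment ran from BOLA-DQA1 to BLA-DQB (chr23:25350293-25864292, 171 windows, 14 gene symbols), the class III segment from NOTCH4 to DDX39B (chr23:26972793-27578792, 202 windows, 60 symbols) and the class I segment from BOLA-A to UBD (chr23:27644793-28922992, 426 windows, 58 symbols). Class III averaged 1.41 ± 0.25 CPM per window, class I 0.694 ± 0.137 and class IIa 0.164 ± 0.041 (SD, n = 8). The rest of the region was low as well, at 0.174 ± 0.043 in the 369 windows between class IIa and class III and 0.197 ± 0.058 in the 193 windows after class I, where 50 symbols, mostly LOC symbols with some named olfactory receptor genes, followed each other. The 116 windows before class IIa, which hold the fatty acid elongase gene ELOVL5, averaged 0.582 ± 0.130.

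**Figure D1:**
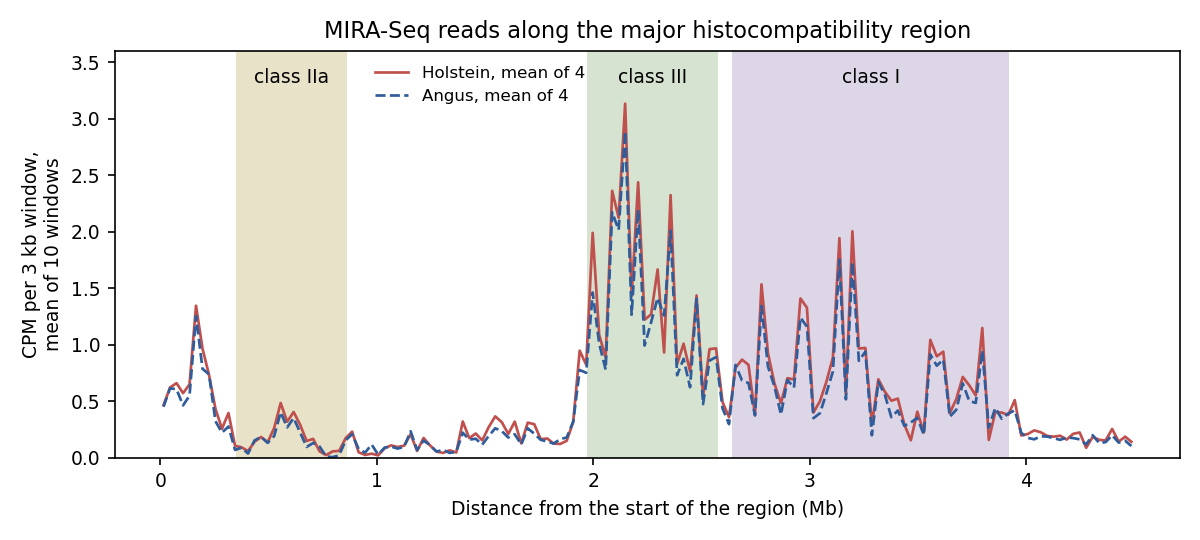
CPM per 3Kb window (vertical axis, means of 10 neighbouring windows) against the distance in Mb from the start of the region, as the mean of 4 Holstein libraries (solid red) and 4 Angus libraries (dashed blue); the shaded bands mark the class IIa, class III and class I segments. Class III stands out, with 1.41 CPM per window against 0.164 in class IIa, and the lines of both breeds have most of their peaks in common, with Angus higher at HSPA1A in class III.

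Against the rest of chromosome 23, class III was 1.85 times as high (log2 ratio 0.88 ± 0.10, SD, n = 8), class I 0.904 times (-0.15 ± 0.05) and class IIa 0.212 times (-2.24 ± 0.19). The class III ratio was 1.87, 1.76, 1.92 and 1.88 in Holstein 1 to 4 and 1.6, 1.91, 1.99 and 1.87 in the 4 Angus cultures. The class IIa ratio was 0.198, 0.237, 0.254 and 0.202 in Holstein 1 to 4 and 0.246, 0.198, 0.201 and 0.171 in the 4 Angus cultures. No library of class IIa came near any library of class III. Class III exceeded class IIa by 3.12 and class I by 1.03 on the log2 scale, and class I exceeded class IIa by 2.09, each in 8 of 8 libraries (exact sign-flip tests, p = 0.00781 for each after adjustment over 3 pairs).

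**Figure D2:**
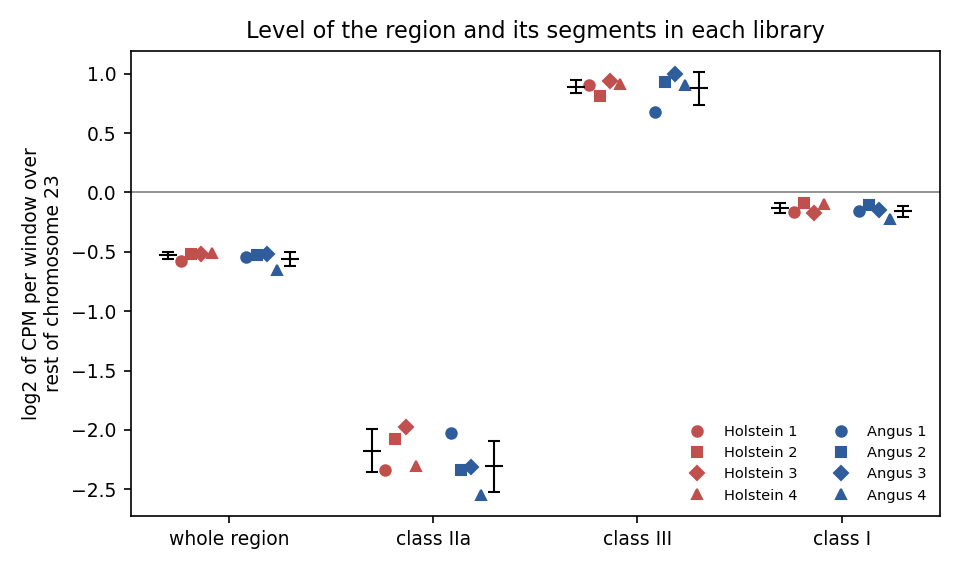
Log2 of the mean CPM per window over that of the rest of chromosome 23 (vertical axis) for the whole region and its segments; each symbol is 1 library (red Holstein, blue Angus), and the black bars give the mean and SD of 4 libraries. Class III lies above 0, at 0.88 on average, class I just below it and class IIa near -2.24, and the symbols of both breeds overlap in every column.

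Windows that held a coding exon had the most reads per window. Windows of the region with a coding exon averaged 1.03 ± 0.18 CPM, windows of a gene without one 0.458 ± 0.101, and windows with no gene name 0.222 ± 0.057 (SD, n = 8). In the rest of the chromosome these means were 1.13 ± 0.21, 0.759 ± 0.152 and 0.677 ± 0.121. The log2 ratio of the region to the rest was thus -0.14 among coding-exon windows and -1.63 among windows with no gene name (both below 0 by exact sign-flip tests, p = 0.00781), so that the deficit sat mainly between genes. The segments kept their order within each kind of window: coding-exon windows averaged 1.67 CPM in class III, 1.13 in class I and 0.323 in class IIa, and windows with no gene name 0.735, 0.380 and 0.10.

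On average over the 8 libraries, the class II genes of the class IIa segment all lay low. The 7 genes found of the class II list ranged from 0.088 to 0.444 CPM per window with a median of 0.335, below the median of 0.544 over all 25311 genes on placed chromosomes. The list counted BTNL2, and the labels HLA-DQA1 and LA-DRB of the same segment were not in it. BOLA-DRA (chr23:25588093-25594092), which encodes the alpha chain of the DR molecule, gave 0.329, 0.411, 0.378 and 0.408 CPM per window in Holstein 1 to 4 and 0.384, 0.313, 0.218 and 0.241 in the 4 Angus cultures. BoLA-DRB3 (chr23:25470793-25479792), the variable DR beta chain gene, gave 0.303, 0.664, 0.454 and 0.300 in Holstein and 0.593, 0.255, 0.235 and 0.749 in Angus. BOLA-DRA lay below the median of 0.544 in all 8 cultures. BoLA-DRB3 lay above it in the Holstein culture with 0.664 and in the Angus cultures with 0.593 and 0.749. The spread of BoLA-DRB3 within each breed was wide. BOLA-DRB2, labelled on 15 windows, averaged 0.352 ± 0.062, the butyrophilin-like gene BTNL2 0.397 ± 0.093, and BLA-DQB at the far end 0.263 ± 0.096 (SD, n = 8).

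The DQ genes at the start of the segment were near 0 in most animals and not in others. BOLA-DQB (chr23:25374293-25389292, 5 windows), which encodes a DQ beta chain, had 0, 0, 49 and 1 reads in Holstein 1 to 4 and 36, 8, 0 and 2 in the 4 Angus cultures. HLA-DQA1 (chr23:25404293-25413292), a label that borrows the human symbol of a DQ alpha chain gene, had 2, 1, 22 and 3 reads in Holstein and 13, 0, 0 and 0 in Angus. BOLA-DQA1 (chr23:25350293-25359292) had 2, 4, 22 and 14 reads in Holstein and 24, 5, 2 and 1 in Angus. Holstein 3 and Angus 1 thus held the most reads at each of these 3 genes, 1 animal from each breed. Both were picked out after the values were seen. The other animals had 0 to 14 reads at these genes. A count of 0 allows a level of up to 3 reads, so animals with 0 to 3 reads could not be told apart. DQ genes differ in number between cattle haplotypes; copies, alignment and methylation cannot be told apart here.

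The class IIb genes, which lie outside the region near 7 Mb of the same chromosome, were higher. TAP1 and TAP2, which carry peptides to class I molecules, averaged 1.62 ± 0.29 and 0.865 ± 0.212 CPM per window, and the immunoproteasome subunit genes PSMB8 and PSMB9 averaged 1.82 ± 0.25 and 1.24 ± 0.33 (SD, n = 8). The 7 genes found there ranged from 0.556 to 1.82 with a median of 0.902, and none of them was called between the breeds, where 0.0569% of all genes were.

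The class III segment held most of the heavily covered genes. The 11 genes found of the complement list had a median of 2.21 CPM per window. The list also holds neighbouring genes such as TNXB, RDBP and EHMT2, and its complement factor genes C4A, CFB and C2 all lay below that median. C4A, a complement factor (chr23:27173793-27197792), averaged 1.66 ± 0.28, complement factor B (CFB) 2.00 ± 0.51 and complement C2 1.02 ± 0.26 (SD, n = 8). TNXB, a large matrix protein gene that overlaps this cluster (chr23:27086793-27140792), averaged 2.70 ± 0.49 over 18 windows, and its window chr23:27134793-27137792 was the highest of the region at 8.56 ± 1.25 CPM. The steroid hydroxylase gene appeared under 2 labels, CYP21A2 at 2.32 ± 0.49 and CYP21 at 0.604 ± 0.327. These are near-identical copies, so the division of reads between them is uncertain. ZBTB12, a zinc finger gene of 1 window, reached 3.56 and the histone methyltransferase gene EHMT2 2.21.

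Among genes with 2 or more windows, VARS, HSPA1A, LOC100139548, DHX16 and TNXB had the highest levels. VARS (valyl-tRNA synthetase, chr23:27365793-27374792) led with 4.89, 4.88, 5.21 and 5.72 CPM per window in Holstein 1 to 4 and 3.03, 4.67, 3.94 and 5.90 in the 4 Angus cultures. Its first window by strand gave 0.791 ± 0.298 CPM, and its 2 other windows 7.59 ± 1.78 and 5.96 ± 1.10. LOC100139548 (3.05 ± 0.56) had a like shape, at 0.679 in its first window against 3.84 in the others, whereas DHX16, an RNA helicase gene of the class I segment (2.89 ± 0.59), and TNXB were as high in the first window as in the others. HSPA1L, a heat shock gene, averaged 1.45 ± 0.28 and the splicing factor gene LSM2 beside it only 0.184 ± 0.103. The TNF cluster lay lower, with a median of 0.699 over 8 genes. TNF itself, a single window, gave 0.759, 1.08, 0.832 and 1.07 CPM in Holstein and 0.838, 1.25, 0.605 and 0.642 in Angus, and lymphotoxin beta (LTB) averaged 0.593 ± 0.220. The 25 other class III genes spanned 0.468 to 2.60, led by EGFL8, with NOTCH4, a receptor gene at the edge of the segment, at 2.03 ± 0.49.

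In the class I segment, the presentation genes had a median of 0.832 CPM per window over 6 labels, from 0.359 in JSP.1 and 0.50 under the BOLA label, both below the median of all genes, to 1.24 in MIC1. BOLA-A (chr23:27644793-27653792) gave 0.708, 1.27, 1.10 and 1.38 CPM per window in Holstein 1 to 4 and 0.908, 1.18, 1.01 and 1.34 in the 4 Angus cultures. BOLA-NC1 (chr23:28352793-28358792), a non-classical class I gene, gave 0.379, 0.844, 0.624 and 1.41 in Holstein and 0.820, 1.23, 0.739 and 1.20 in Angus. Both genes overlapped between the breeds. The stress ligand genes MIC1 and MIC2 averaged 1.23 ± 0.34 and 0.758 ± 0.240. The label BOLA was spread over 183 windows between 27677793 and 28508792 and averaged 0.50 ± 0.12, but it names many loci at once, and class I genes share sequence, so its reads cannot be assigned to 1 gene. JSP.1, another class I label (chr23:28469793-28475792), gave 0.202, 0.260, 0.208 and 0.183 in Holstein and 0.332, 0.713, 0.202 and 0.776 in Angus.

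Among the 33 other genes of the class I segment the median was 0.927, equal to the level of POU5F1, the pluripotency factor gene known as OCT4, at 0.927 ± 0.206 (chr23:27767793-27776792). The list named antigen processing had 3 members in the region, none of which is a peptide transporter or proteasome gene: ABCF1, a translation factor gene, at 2.21 ± 0.46, the ubiquitin ligase gene TRIM26 at 1.82 ± 0.28 and UBD, a ubiquitin-like modifier gene, at 0.490 ± 0.102. At the low end of the region stood LOC100337092 (0.0412 CPM per window), LOC790332 (0.0431), LOC100337245 (0.0525), HLA-DQA1 (0.0631) and BOLA-DQB (0.0881). The 44 LOC symbols after class I had a median of 0.197.

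**Figure D3:**
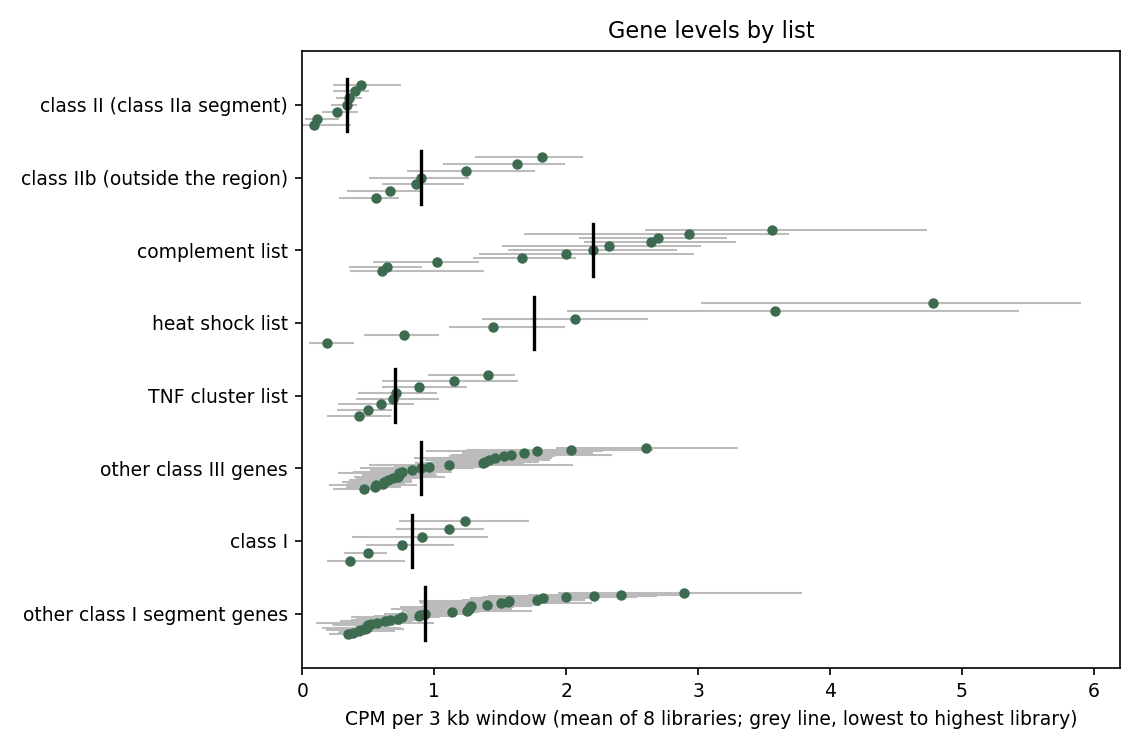
CPM per 3Kb window (horizontal axis) of each gene of 8 lists, as the mean of 8 libraries (green points) with the lowest and the highest library (grey lines); black bars mark the list medians. The class II list lies lowest, with a median of 0.335, and the class IIb genes outside the region reach 0.902. The complement list, which includes neighbouring genes, is highest at 2.21.

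On average, the window at the start of a gene, taken from its strand, was lower than the windows that followed, but genes differed in this. The first window was the lower one in all 8 libraries for 57 of the 139 genes of the region with at least 2 windows and a strand, the higher one in all 8 for 18, and neither for 64. VARS was among the former. Among the latter were C4A (2.37 CPM in the first window, 1.56 in the others), RDBP, a transcription elongation factor gene (3.72 and 1.56), BOLA-NC1 (1.16 and 0.657), BTNL2 (0.718 and 0.357) and BoLA-DRB3, whose reads lay nearly all in its first window (1.11 and 0.109). No transcription start was labelled, so the first window that carries a gene's label can miss its start. That of RDBP, on the plus strand, carried coding exon 4. On the minus strand, those of C4A, BOLA-NC1 and VARS were labelled coding exon 8, 5 and 4. Pooled over genes, first windows averaged 0.422 to 0.736 CPM per library and the other windows 0.550 to 0.982. The log2 ratio was -0.44 ± 0.07 (SD, n = 8), below 0 in 8 of 8 libraries (exact sign-flip test, p = 0.00781), against -0.22 ± 0.03 over 478 genes of the rest of the chromosome, a difference of -0.23 (exact sign-flip test, p = 0.00781). The BOLA label, which is not 1 gene, supplied many of the 637 other windows, since 455 were left without it. Without the label, a setting chosen after seeing the data, the log2 ratio was -0.65 and the difference from the rest -0.43. Among genes of at least 4 windows the difference was 0.05 with the BOLA label (p = 0.0703, exact) and -0.19 without it (p = 0.00781, exact), so that its sign rested on that label.

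Between the breeds, the level of the region did not differ beyond the spread between animals. The log2 ratio to the rest of chromosome 23 averaged -0.53 ± 0.03 in Holstein and -0.56 ± 0.06 in Angus (SD, n = 4 each), a difference of 0.03 (two-sided exact permutation test, p = 0.486, where 4 against 4 can reach 0.029). The difference was 0.13 for class IIa, 0.02 for class III and 0.03 for class I (exact permutation tests, adjusted over 3 segments, p = 0.771, 0.857 and 0.771). The sign changed under another way of averaging for the region, class IIa and class I. For class III it changed when the highest windows or Angus 1 were left out. No direction can therefore be given.

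Of the 1499 windows, 206 (13.7%) reached 1 CPM in 4 or more samples and were tested, 95 of them in class III, 84 in class I and 2 in class IIa. The window test therefore says little about class II. A DMR was a window with FDR < 0.1 and FC ≥ 2 in edgeR's likelihood-ratio test over all windows of the genome that passed the filter. The region held 1 DMR, which is 0.485% of its tested windows, beside 0.231% of the 115360 windows tested in the genome. The study's own list of DMR, at the same FDR and FC limits, held no window of this region. That list was much shorter and nearly even between the breeds, whereas 267 windows were called here over the genome, 222 higher in Angus. The reason for these differences was not tested. The DMR of the region was higher in Angus, the direction of 0.192% of all windows tested. The quasi-likelihood test called the same window alone, with 0.122% called in the genome. The median log2 difference, Holstein minus Angus, was 0.04 over the 206 windows, 115 of which were higher in Holstein. It was 0.00 over all windows tested. With total counts in place of TMM 167 of the 206 were higher in Holstein, where the median was 0.20 in the region and 0.14 over all windows. An unadjusted p below 0.05 was reached by 11 windows of the region (5.34%), 6 higher in Holstein and 5 higher in Angus, against 4.94% of all windows. The breeds did not overlap, after TMM scaling, in 8 windows of the region (3.88%), against 2.63% in the genome. Such shares lie near the background.

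The DMR lay in HSPA1A, which encodes an inducible heat shock protein of the HSP70 family that helps other proteins fold (chr23:27329793-27332792, minus strand, coding exon 1, class III). It held 46, 65, 56 and 104 reads in Holstein 1 to 4 and 129, 125, 147 and 100 in the 4 Angus cultures. As CPM these were 2.33, 2.81, 2.12 and 2.93 in Holstein and 4.5, 4.35, 4.94 and 5.35 in Angus. Every Angus culture lay above every Holstein culture. The log2 fold change was -1.08 (SE 0.19), with an FDR of 3.15e-05 in the likelihood-ratio test, 0.0106 in the quasi-likelihood test and 2.37e-05 in DESeq2. With total counts in place of TMM it was -0.90 with an FDR of 0.148, in a setting that moved the median of all windows as given above. Without Holstein 3 it was -0.99 and without Angus 3 -0.88, both under the fold change minimum with an FDR of 0.00394 and 0.000141. Without Holstein 1 and Angus 3, the libraries that stood apart, it was -0.94, also under the fold change minimum.

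The next window of HSPA1A (chr23:27332793-27335792, coding exon 1), which is the gene's first window by strand, went the same way. It held 59, 43, 50 and 123 reads in Holstein 1 to 4 and 117, 132, 108 and 103 in the 4 Angus cultures. Its log2 fold change of -0.93 (SE 0.19) had an FDR of 0.00156 but missed the fold change minimum, and its CPM, 1.86 to 3.46 in Holstein and 3.63 to 5.51 in Angus, did not overlap. The adjoining windows showed no such difference. HSPA1L on the one side had a log2 fold change of -0.15 (SE 0.20), with 1.11 to 1.99 CPM in Holstein and 1.21 to 1.6 in Angus. LOC781796 on the other side missed the filter and averaged 0.904 ± 0.232 in Holstein and 0.567 ± 0.170 in Angus. HSPA1A has a near-identical neighbouring copy, HSPA1B, which appears under no label here, so reads of both could be counted in these windows. The highest coverage at any base of the DMR was 10 to 28 reads per library, 6.20 times the mean coverage.

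**Figure D4:**
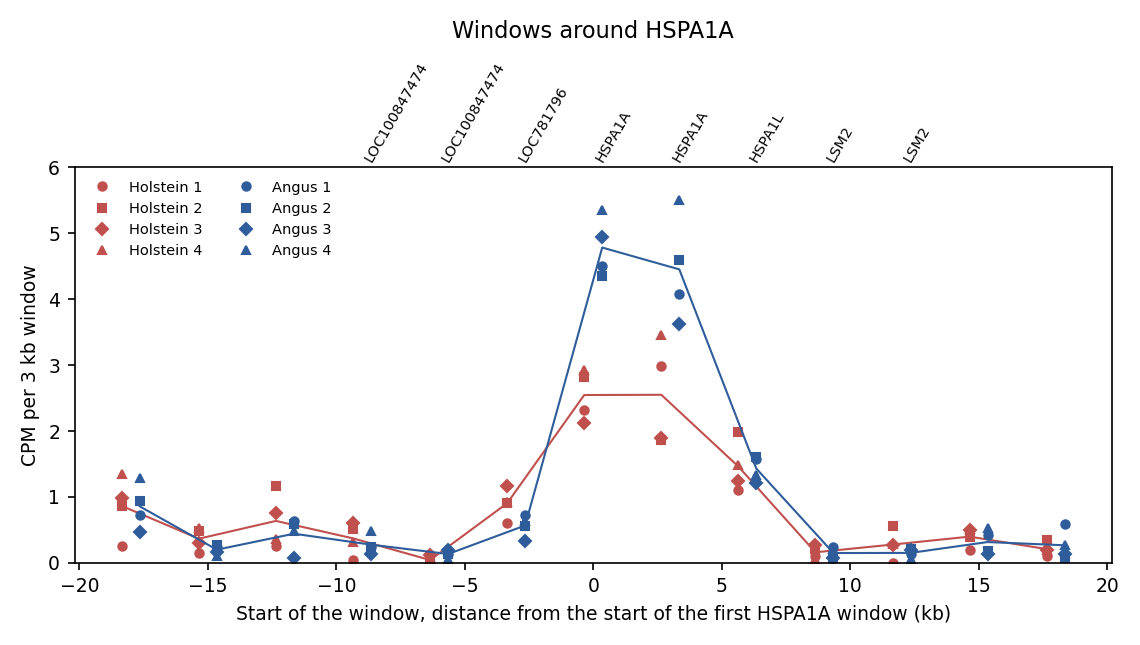
CPM per 3Kb window (vertical axis) in each library, with the gene label of each window above. The horizontal axis gives the distance in kb from the HSPA1A window that is first by position, which is the DMR. Red symbols and line are Holstein libraries and their mean, blue ones Angus. In both HSPA1A windows all Angus symbols lie above all Holstein symbols, with 4.78 against 2.55 CPM in the DMR, and the breeds overlap in the other windows.

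The other windows with the smallest p in each direction were not DMR. In NOTCH4 (chr23:26987793-26990792, coding exon 18) the reads were 149, 222, 273 and 414 in Holstein and 143, 254, 99 and 104 in Angus. The log2 fold change was 0.67 (SE 0.19), under the fold change minimum, and the FDR 0.0975. Coverage there peaked at 59 to 290 reads at a base, 19.7 times the mean of the window, so that reads were stacked. PPP1R10, a phosphatase regulator gene (chr23:28187793-28190792), had 0.39 (FDR 0.732) and the GABA receptor gene GABBR1 (chr23:28802993-28805992) 0.49 (FDR 0.859). CYP21 (chr23:27164793-27167792) had a log2 fold change of -0.88 (FDR 0.206), with 75 reads in Angus 2 and 15 to 33 in the other libraries.

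Summed over the windows of each gene, 110 of the 202 genes passed the filter, and 1 of them was called at the same thresholds (0.909%), beside 0.0569% of the 19336 genes tested in the genome. This was HSPA1A again, which is not independent of its windows: 2.66, 2.34, 2.01 and 3.19 CPM per window in Holstein 1 to 4 against 4.29, 4.47, 4.28 and 5.43 in the 4 Angus cultures, with a log2 fold change of -1.02 (SE 0.22) and an FDR of 0.00791 in edgeR's likelihood-ratio test. The FDR was 0.0108 in DESeq2 and 0.818 in the quasi-likelihood test, which called 0 of the 19336 genes, with 337 at an unadjusted p below 0.05. With total counts the FDR was 0.983. Without Holstein 2 or Holstein 3 the gene missed both thresholds (FDR 0.107 and 0.140), and without Angus 3 or Angus 4 it missed the fold change minimum alone, with log2 fold changes between -0.99 and -0.86 over these 4 settings. The call of the gene thus changed with the test, the scaling and single libraries.

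The remaining gene groups held no called gene. Of the 5 tested genes of the class I list, the 3 of the class II list, the 5 of the TNF cluster and the 26 other genes of the class I segment, none was called, and the list medians of the log2 fold change were -0.18, -0.01, 0.01 and 0.00 beside -0.02 over all genes tested. The complement list had 11 tested genes with none called and a median of 0.03, the 20 other class III genes had none and 0.02, and the 2 tested genes named antigen processing none and 0.02. The heat shock list, which holds HSPA1A and neighbours such as NEU1 and VARS, had 5 tested genes with HSPA1A alone called and a median of -0.10. In each direction the genes with the smallest unadjusted p after HSPA1A were CYP21 (log2 fold change -0.91, FDR 0.773) and LOC100337245 (-1.54, FDR 0.911) on the Angus side, and MDC1, a DNA damage mediator gene (0.29), NOTCH4 (0.26) and the ubiquitin ligase gene TRIM31 (0.41) on the Holstein side, each with an FDR near 1. LOC100337245 rested on 10 to 62 reads over 25 windows per library. With total counts it was called in place of HSPA1A, at a log2 fold change of -1.51.

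Windows with few reads added calls once the CPM filter was dropped. Of 1489 windows with a read, 11 (0.739%) were then DMR, beside 0.102% of 887821 windows in the genome, and 10 of the 11 were higher in Angus. With the quasi-likelihood test the count was 7 (0.470%), beside 0.0564%. Besides the HSPA1A window, which missed the threshold in this second test (FDR 0.132), they rested on 19 to 121 reads over all 8 libraries. The window chr23:28454793-28457792 under the BOLA label had 3, 1, 0 and 0 reads in Holstein and 1, 25, 3 and 11 in Angus, and the JSP.1 window chr23:28469793-28472792 had 7, 12, 9 and 10 in Holstein and 15, 33, 9 and 26 in Angus. The 1 window higher in Holstein (chr23:25702193-25705292, class IIa) had 7, 2, 33 and 43 reads in Holstein and 4, 1, 9 and 1 in Angus, so that it was high in Holstein 3 and Holstein 4 alone. The breeds overlapped in 8 of these 11 windows.

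Animals of one breed also differed from each other. In 45 of 576 windows of the region with at least 80 reads (7.81%), the animals of a breed varied with a coefficient of variation over 40% after counting error was subtracted, against 180 of 8362 such windows in the rest of the chromosome (2.15%). The share was 0.588% in class III (1 of 170 windows), 10.5% in class I (27 of 256), 11.8% in class IIa (2 of 17) and 21.4% between class IIa and class III (9 of 42). A measure that grows with the number of reads, a chi-square per degree of freedom over 5, was exceeded by 7.06% of windows in class III and 7.42% in class I, against 7.29% in the region and 2.25% in the rest. The gap between class III and class I thus depended on the measure. These shares describe the 8 animals and were given no test. The median number of reads was 153 in the windows of the region and 165 in the rest.

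The deepest such gap lay in the class I segment of 1 animal. Between MIC2 and MIC1 (chr23:27668793-27722792, 18 windows labelled BOLA or LOC788634 or without a name), Holstein 3 had 33 reads, 0.0838 times the 393.7 that its other chromosome 23 reads and the other libraries would give, and 9 of the 18 windows had none. The other 7 libraries had 223, 355, 854, 310, 399, 260 and 199 reads there, in the order Holstein 1, 2 and 4 and Angus 1 to 4, with no window at 0. In the window chr23:27689793-27692792 the counts were 32, 66, 0 and 151 in Holstein 1 to 4 and 33, 51, 39 and 33 in the 4 Angus cultures. The 3 windows of MIC1 just beyond held 112 reads in Holstein 3 and 41 to 183 in the other libraries. Holstein 4 was the highest in the stretch, at 1.93 times its expected reads. The stretch was chosen after its values were seen, and copies, alignment and methylation cannot be told apart from these counts.

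**Figure D5:**
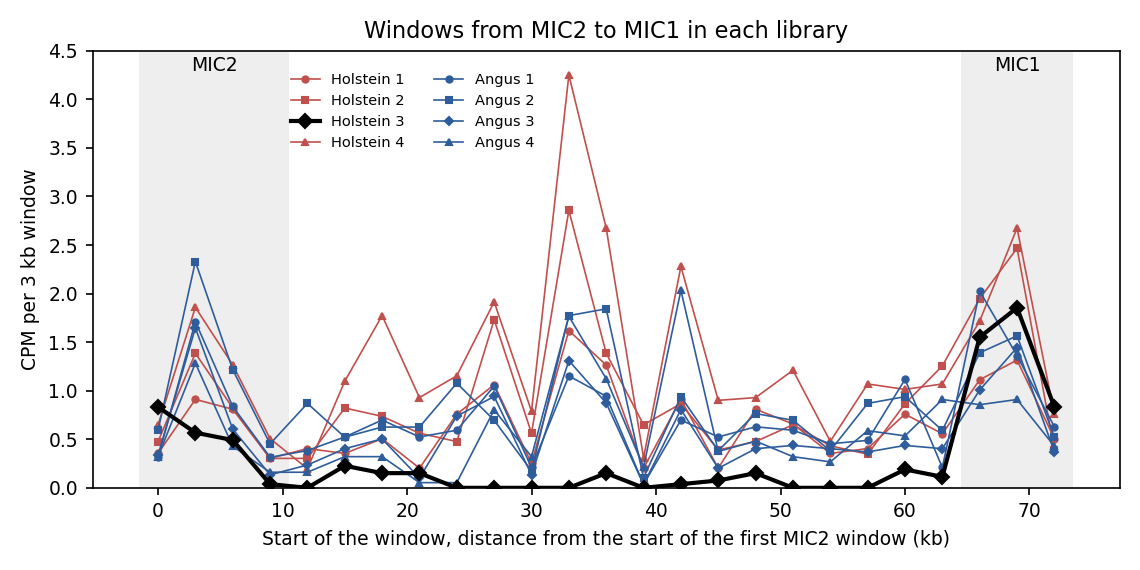
CPM per 3Kb window (vertical axis) from MIC2 to MIC1 against the distance in kb from the MIC2 window that is first by position, with 1 line per library. Holstein 3 is drawn in black, the other Holstein libraries in red and the Angus libraries in blue. Holstein 3 stays at or near 0 over the 18 windows between the grey bands, with 33 reads against 199 to 854, and rejoins the other libraries at MIC1.

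Other animals had gaps elsewhere in the region. Stretches of 10 windows with at least 50 expected reads were scanned for libraries under 0.4 times the expected reads. Such stretches merged into 13 places in the region, in 6 of the 8 libraries, among 1277 stretches, and into 2 places among 15901 stretches in the rest of the chromosome. The lowest ratio was 0.0425 in the region and 0.338 outside it. In Holstein 2 the 10 windows chr23:26200493-26230492 between class IIa and class III held 6 reads where 54.8 were expected. In Holstein 4 the windows chr23:28820993-28850992 around LOC100848480 held 19 reads where 87.5 were expected. In Angus 4 the windows chr23:28472793-28502792, under the JSP.1 and BOLA labels, held 15 where 61.7 were expected, and at an overlapping place Angus 2 held 155 where 50.1 were expected. That place takes in the BOLA and JSP.1 windows called without the CPM filter. The places came from both breeds, and the windows chr23:26140493-26170492 were low in Holstein 2 and in Angus 4 alike. The limit of 0.4 was chosen after the values were seen, and the cause of the gaps was not tested.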

How the data were processed

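MIRA-Seq libraries of un-treated dermal fibroblasts from 4 Holstein and 4 Angus heifers were analysed, and the breed of each came from the sample labels. The authors trimmed and filtered reads, aligned them to UMD v3.1 with NextGENe 2.3.4 (CASAVA 1.7 is also named in the submitters' processing notes) and deposited raw read counts per 3Kb window, not normalized, with a gene and coding exon label. The deposited files also hold the lowest, highest and mean coverage per window, a signal that was used only to look for stacked reads. How duplicate and multiply matching reads were handled is not given in the sources used here. The windows held 56.2 to 62.9% of the matched reads, 18691111 to 35525554 per library, and these totals were the library sizes.

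Breeds were compared in R 4.3.3 with edgeR 4.0.16 (TMM, likelihood-ratio test, Benjamini-Hochberg adjustment over the whole genome), on windows and on counts summed per gene symbol and chromosome, with a minimum of 1 CPM in 4 or more samples. The standard error is the log2 fold change over the root of the chi-square value of its p. Quasi-likelihood tests, DESeq2 1.42.0, other scalings and filters, and leaving out libraries were alternatives. Levels were compared by exact permutation tests in Python 3.11.15. The procedures were tested on simulated data. The last window of chromosome 23, which runs on into the next chromosome, stayed in the background.

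Named windows were the DMR, the 3 smallest p in each direction and the 5 highest levels; named genes were those called, the 3 smallest p in each direction, the 5 highest and 5 lowest levels among genes of at least 2 windows, and members of gene lists by role. The members, segments and lists were chosen with earlier results of these data known. Libraries of a breed differed by more than counting noise (chi-square per window 1.46 to 2.82), so none was a copy of another. Because no genome of this build was used here, no sequences are shown.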

Additional observations from a re-analysis of the deposited data

Results flagged for a closer look

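In each breed, the named genes, windows and levels were scanned for a library that stood apart from the other 3 by more than Dixon's 95% critical value. This happened in 7 of 62 groups, where chance gives about 1 in 20, and the groups share libraries and overlapping genes. Holstein 3 stood apart at BOLA-DQB, with 0.371 CPM per window against a median of 0 in the other Holstein cultures, and at HLA-DQA1, with 0.278 against 0.0282. Angus 1 stood apart at HLA-DQA1, with 0.151 against 0 in each of the other Angus cultures. These are the DQ genes described above, at 13 to 49 reads in the high animals.

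In the window of VARS that starts at 27365793, Holstein 4 had 9.49 CPM against a median of 7.94 in the other Holstein cultures. At HSPA1A, Angus 4 had 5.43 CPM per window against a median of 4.29 in the other Angus cultures. Holstein 4 had 0.113 CPM per window at LOC100337092 against 0.0433, from 8 reads, and Holstein 1 had 0.0607 at LOC100337245 against 0.0169, from 30 reads over 25 windows.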

How the results depend on the processing

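The level of the region against the rest of chromosome 23 and the order of its segments kept their direction and their side of the threshold in all 14 alternatives each, with a log2 ratio of the region between -1.63 (windows with no gene name) and -0.14 (coding-exon windows), both chosen after seeing the data, and between -0.55 and -0.53 when 1 library was left out. The number of DMR in the region, 1 as reported, was 3 with no fold change minimum, 0 with total counts, 11 without CPM filter, 7 without CPM filter under the quasi-likelihood test, 2 without Holstein 1 and Angus 3 together, and 0 to 2 when 1 library was left out (2 without Holstein 1 or Holstein 4, 0 without Holstein 3 or Angus 3). Without Holstein 1 and Angus 3 together, the 2 were the next HSPA1A window (log2 fold change -1.03) and the CYP21 window (-1.02), and not the reported DMR. The number of genes called, 1 as reported, was 0 under the quasi-likelihood test with or without the CPM filter, and 0 to 2 when 1 library was left out (0 without Holstein 2, Holstein 3, Angus 3 or Angus 4, 2 without Angus 1). Over the genome, 267 windows (45 higher in Holstein) were called as reported, 425 with no fold change minimum, 141 under the quasi-likelihood test and under DESeq2, 905 without CPM filter, 163 with 1 CPM in all samples, 154 without unplaced scaffolds, 531 without Holstein 1 and Angus 3, and 145 to 564 without 1 library. Of the genes, 11 (2 higher in Holstein) were called as reported, 12 (6) with total counts, 20 with no fold change minimum, 0 under the quasi-likelihood test, 6 under DESeq2 and with 1 CPM in all samples, and 29 (15) without filter. The breed difference of the level turned to -0.0130 for the region, -0.00471 for class IIa and -0.0127 for class I with means of log2(CPM + 0.1), to -0.0107 for class I with medians, and to -0.0141 for class III without the top 1% of windows. Leaving out 1 library it lay between -0.000694 and 0.0444 for the region and between -0.0510 and 0.0556 for class III (negative without Angus 4 and without Angus 1 respectively). The difference of first windows between the region and the rest turned to 0.0544 with genes of at least 4 windows, and was -0.19 when the BOLA label was also left out. The cause of the other changes was not tested. Animal numbers did not pair the cultures (mean correlation of same-numbered animals -0.020, from -0.212 to 0.131). With the animal number as a block, 1 window and 1 gene of the region were called, HSPA1A had a log2 fold change of -1.06 (window) and -1.04 (gene), and the breed difference of the region's level had an exact p of 0.750, so the block changed no call in the region. Over the genome, 346 windows and 12 genes were called with the block. Removing unplaced scaffolds could not change the gene fit, which holds placed chromosomes only. Taking the autosomes as background could not change the order of the segments, which were compared with each other. In class IIa the depth left 2 windows and 6 genes to the breed tests.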
